A study of Homo sapiens with 10 samples.

Results

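Interferon-stimulated genes were followed gene by gene in 2 human glioma lines in which the homeobox transcription factor MEOX2 was lowered or raised. The set was given by name: 49 interferon-induced effectors and signalling genes, with UBA7 among them. A symbol in the count table matched 48 of the 49 names among its 34567 gene rows, and CMPK2 was not analysed here. SNB19 cells expressed MEOX2 and were transfected transiently with MEOX2 siRNA (3 libraries) or Scramble siRNA (3 libraries) with a lipid reagent. U87 cells, in which the control libraries held 0 MEOX2 counts, were transduced with MEOX2 overexpression lentivirus (2 libraries) or Empty Vector lentivirus (2 libraries) with polybrene. The study's methods describe the U87 lines as stable lines under puromycin. All cells grew in DMEM with fetal bovine serum, and the labels name no interferon treatment. The labels do not say which siRNA was used or whether replicates were separate cultures, so p-values measure the spread between these libraries, which may be technical. The treatment labels of the U87 libraries count up from MEOX2 to MEOX5 while each title names MEOX2, so groups were taken from the titles. The titles of both overexpression libraries end in the same bracketed name, so the labels do not settle whether these libraries came from the same sample.

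Interferons bind receptors that switch on the kinases JAK1 and TYK2, and these activate transcription factors. STAT2 and IRF9 are subunits of the factor ISGF3, which binds the interferon-stimulated response element (ISRE), a short DNA motif built from repeated GAAA, while the GAS motif serves the response to interferon-gamma. The genes so switched on sense foreign RNA, stop its translation, trap budding virus and tag proteins with the ubiquitin-like protein ISG15. Many glioma lines express part of this programme without added interferon.

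The promoter letters below are those of the genes whose level fell most with MEOX2 siRNA in SNB19 cells and whose RefSeq promoter held the ISRE core. They are shown because the ISRE is the element that members of this set are named for. RefSeq (GRCh38.p14) gave a promoter, the 250 bases before and the 50 bases after a start site, for 38 of the 48 members. Each line gives the strand of the gene from 5′ to 3′, and capitals mark matches to the ISRE core GAAANNGAAA, where N is any base, on either strand.
IFI27, chr14:94110588-94110690, plus strand, from -148 to -46 of the start site: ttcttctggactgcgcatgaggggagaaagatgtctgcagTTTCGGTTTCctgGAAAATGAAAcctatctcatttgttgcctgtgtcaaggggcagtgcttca
BST2, chr19:17405705-17405800, minus strand, from -170 to -75: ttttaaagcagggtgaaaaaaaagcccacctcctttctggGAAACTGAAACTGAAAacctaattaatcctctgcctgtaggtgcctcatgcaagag
IFI44L, chr1:78620244-78620424, plus strand, from -204 to -24: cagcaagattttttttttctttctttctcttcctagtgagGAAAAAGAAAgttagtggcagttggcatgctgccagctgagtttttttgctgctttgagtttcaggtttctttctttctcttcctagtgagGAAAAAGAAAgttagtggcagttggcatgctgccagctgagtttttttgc
TRIM21, chr11:4393663-4393692, minus strand, from 11 to 40 after the start: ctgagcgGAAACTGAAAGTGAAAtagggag
Each of the 4 stretches held 2 matches. In IFI27 they lie on opposite strands and both overlap a GAS core, TTCNNNGAA. In BST2 and TRIM21 they overlap within a run of GAAA repeats, and IFI44L carries the same stretch of sequence as 2 copies. SAMD9L and SP100, the other members of the 6 largest changes with a RefSeq promoter, held no match in these windows.

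Over the set, 26 of 38 promoters held the ISRE core on either strand (68.4%, 95% Wilson interval 52.5 to 80.9%), against 1195 of 27305 genes in RefSeq (4.38%). Read on the gene's own strand alone, 47.4% of the members held it. The GAS core TTCNNNGAA, which reads the same on both strands and can overlap the ISRE core, was in 31.6% of the members' promoters and in 9.38% of all. The homeodomain core TAATTA, the kind of site that homeobox factors bind, was in 1 of 38 members (2.63%) and in 5.95% of all genes. That member was BST2, where it follows the ISRE core in the stretch printed above. A match describes letters in these windows and is no measurement of binding.

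The libraries held 12533775 to 16560324 counts each. FPKM, counts divided by gene length and by the total count of the library, compares genes within a library, and it was used for levels. Fold changes came from edgeR on the counts, whose scaling moves U87 Empty Vector replicate 1, so they can differ from ratios of FPKM. MEOX2 itself followed the titles: it had 6.54 ± 0.54 FPKM (SD, n = 3) with Scramble siRNA and 1.29 ± 0.16 FPKM with MEOX2 siRNA, 5.06-fold lower. It had 0 counts in both U87 Empty Vector libraries and 160 and 145 FPKM in the overexpression libraries. Their mean lay at least 1784-fold above the level of 3 counts in a vector library. U87 Empty Vector replicate 1 stood apart from the other 9 libraries. Its scaling factor (TMM, edgeR) was 0.695 against 0.950 to 1.13 elsewhere, and ribosomal protein genes took 13.0% of its counts against 4.04 to 6.68%. Of 13785 genes, 37.4% differed over 2-fold between the U87 Empty Vector libraries, against at most 1.17% in any other pair of replicates. The U87 contrast is therefore also given with each Empty Vector library left out where that changes a call or moves a value. Of the glial and glioma markers, VIM, NES, SOX2, OLIG2 and CD44 reached 1 FPKM in some library, while GFAP, S100B and AQP4 stayed under 1 FPKM in all 10. Of markers of other cell types, CSF1R (immune), PECAM1 and KDR (endothelial) and SNAP25 and MAP2 (neuronal) reached 1 FPKM in some library, and none of 4 epithelial markers did.

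**Figure D1:**
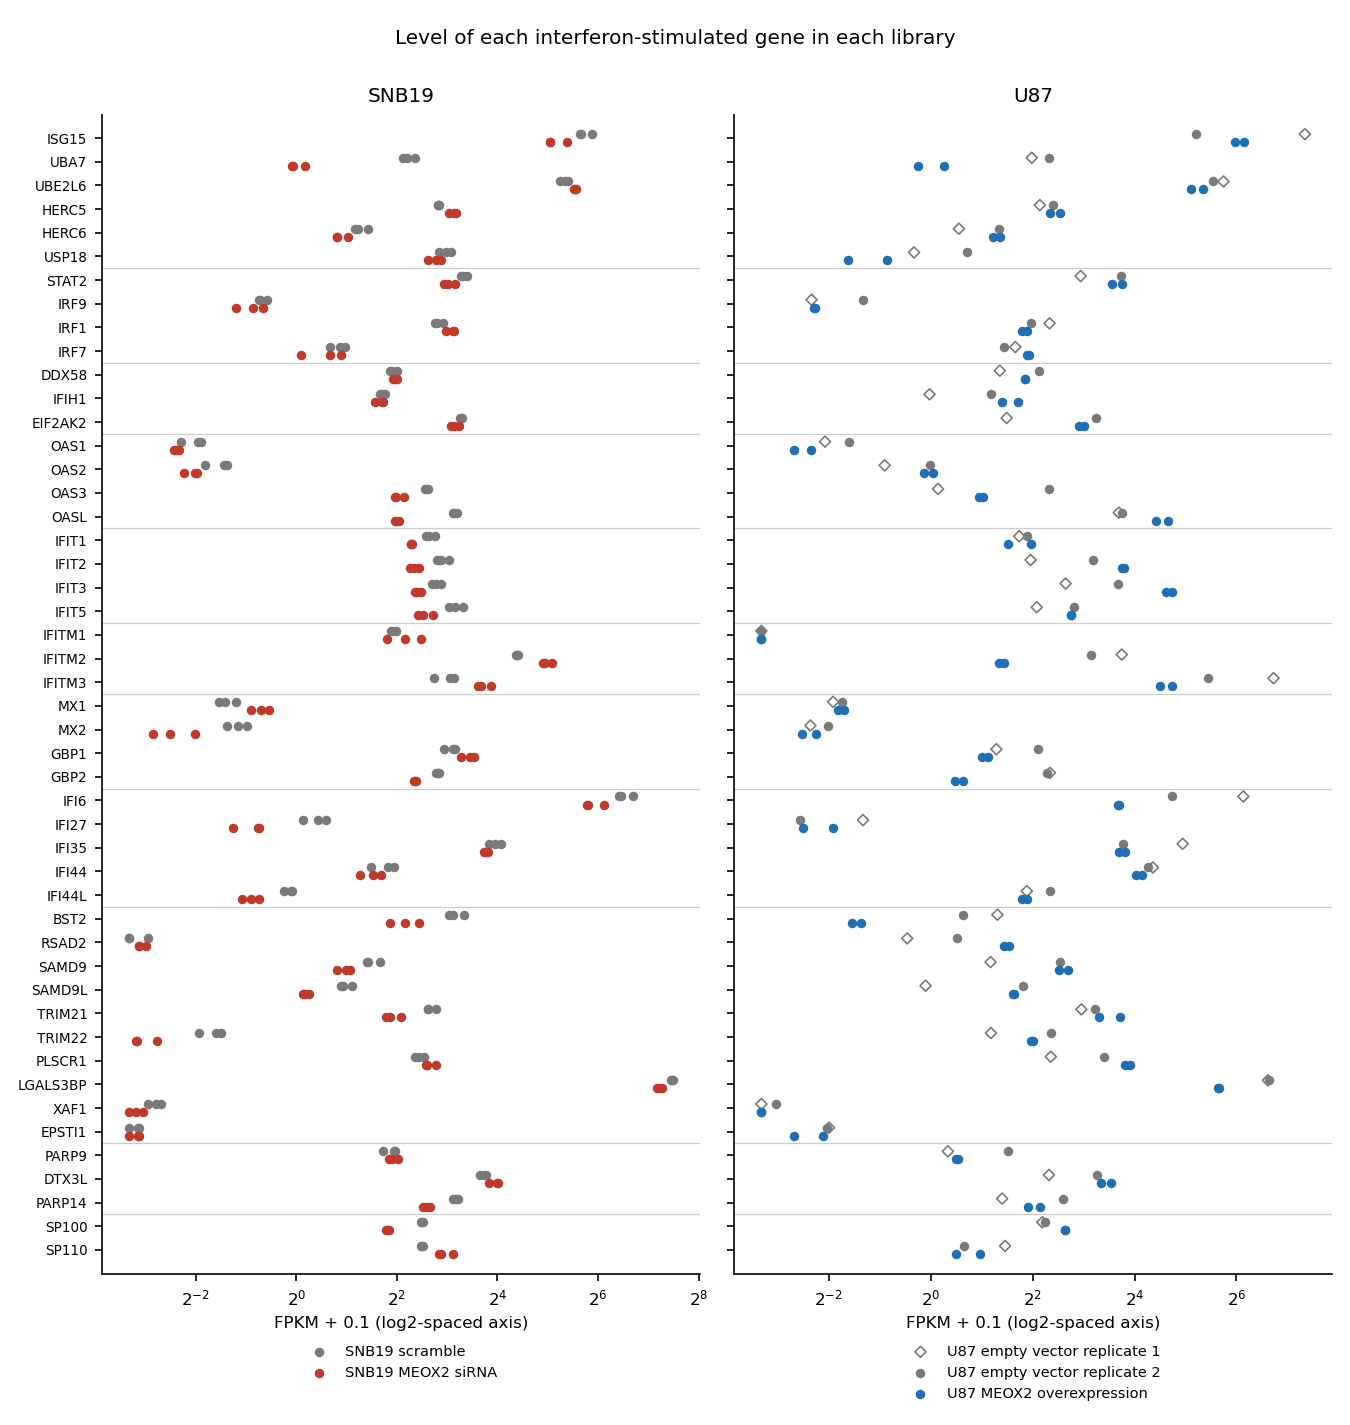
Level of each of the 48 members in each library on a log2-spaced axis of FPKM + 0.1, with SNB19 on the left and U87 on the right and grey lines between functional groups. Points are single libraries, and the open diamond is U87 Empty Vector replicate 1. LGALS3BP and IFI6 are the highest in SNB19, and IFITM1 sits at 0 in every U87 library.

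The set was expressed in the control cells of both lines without added interferon. In SNB19 cells with Scramble siRNA 38 of 48 members had a mean of 1 FPKM or more, with a median of 5.74 FPKM against 0.459 for all detected genes, and in U87 Empty Vector cells the count was also 38, with a median of 4.08 FPKM against 0.931. The highest member in SNB19 was LGALS3BP, a secreted glycoprotein that binds galectin-3, with 175, 179 and 177 FPKM in the Scramble libraries. IFI6, a small membrane protein, followed with 85.3, 104 and 87.7 FPKM, and ISG15 with 49.7, 58.5 and 50.5 FPKM. In U87 Empty Vector cells ISG15 had 162 and 36.9 FPKM, LGALS3BP 98.1 and 99.8 FPKM, and IFITM3, a membrane protein that blocks virus entry, 106 and 43.2 FPKM. LGALS3BP thus had nearly equal values in both vector libraries, whereas ISG15 and IFITM3 were far higher in replicate 1. At the other end XAF1 and EPSTI1 stayed under 1 FPKM in all 10 libraries.

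**Figure D2:**
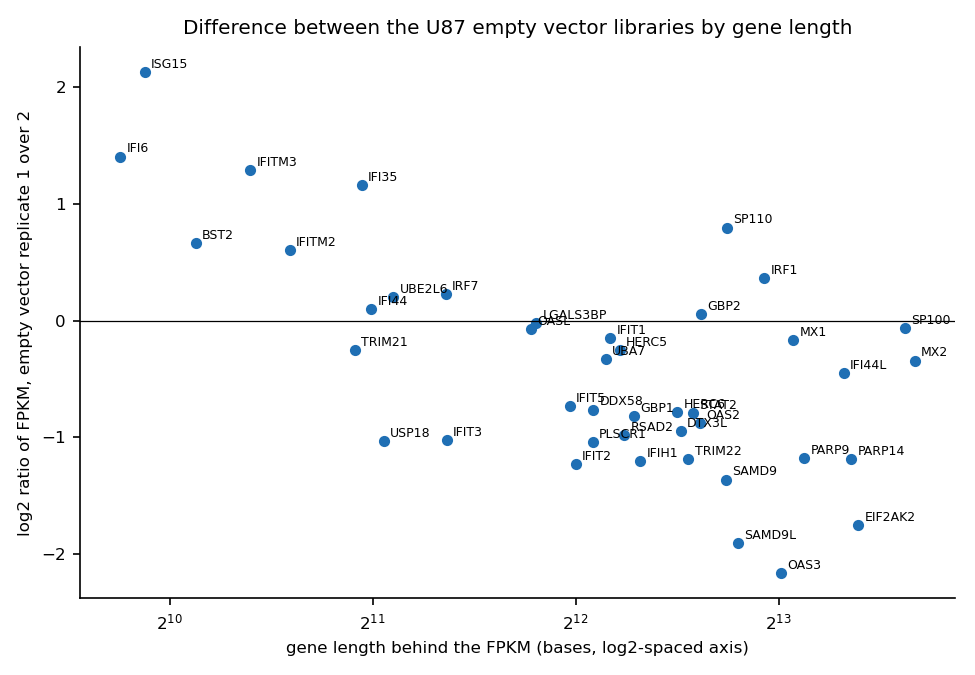
Log2 ratio of the FPKM of U87 Empty Vector replicate 1 over replicate 2 (vertical) against the gene length behind the FPKM (horizontal, log2-spaced), for members with at least 40 counts summed over the pair. The shortest members, ISG15, IFI6, IFITM3 and BST2, lie above 0 and many of the longest, such as OAS3 and EIF2AK2, lie below.

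The vector libraries differed in a way that followed gene length. Over all genes the median log2 ratio of replicate 1 to replicate 2 was 1.48 higher in the shortest than in the longest of 5 equal length classes, against at most 0.193 in any other pair of replicates. Among members the log2 ratio was 2.13 for ISG15, whose FPKM rests on 941 bases, and 1.41 for IFI6, with 865 bases. It was -2.17 for OAS3, with 8251 bases, and -1.76 for EIF2AK2, with 10753 bases. UBA7, LGALS3BP, OASL and GBP2 differed little, with ratios of -0.33, -0.02, -0.07 and 0.06. The part that this difference plays in the U87 results below was not tested beyond leaving out each library and adding a length term.

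MEOX2 silencing in SNB19 cells lowered most of the set. Of 44 members with enough counts to test, 27 fell and 8 rose, while 9 did not pass the test (edgeR's quasi-likelihood test, Benjamini-Hochberg adjusted p under 0.05 over 15525 genes, MEOX2 siRNA against Scramble siRNA). Over all genes 28.5% were called lower and 27.4% higher. The share of members called lower, 61.4%, lay above this background and the share called higher, 18.2%, below it. The members were chosen with earlier results of these data known, so this comparison is not an independent test. The median log2 fold change was -0.41 for the members and 0.01 for all genes. In a fit that shared its estimate of the spread with the U87 libraries, 13 members stayed lower and 1 higher (MX1), and at over 2-fold with an unadjusted p under 0.05, a rule like that of the study, 6 were lower and 0 higher. Without Scramble replicate 1, 5 members were called higher, with HERC5, GBP1 and DTX3L lost. Marker lists moved too: from the Scramble to the MEOX2 siRNA libraries the summed level of 8 glial markers went from 213 to 215 down to 108 to 113 FPKM, that of 5 endothelial markers from 5.52 to 6.32 down to 1.56 to 1.77 FPKM, mostly PECAM1, and that of 6 immune markers from 4.71 to 5.49 down to 1.77 to 2.19 FPKM, mostly CSF1R, with PTPRC, AIF1 and CD68 near 0. In the immune and endothelial lists ITGAM (mean 0.476 and 0.545 FPKM) and KDR (mean 0.422 and 0.552 FPKM) were higher with MEOX2 siRNA. The sum of 4 epithelial markers rose from 0.385 to 0.725 up to 1.05 to 1.14 FPKM. That rise was CDH1 (mean 0.178 and 0.712 FPKM). EPCAM (mean 0.316 and 0.288 FPKM), KRT5 (0.0862 and 0.0634 FPKM) and KRT14 (0.0301 and 0.0195 FPKM) were lower. The sum of 4 neuronal markers was 4.64 to 5.45 FPKM with Scramble siRNA and 4.62 to 4.76 FPKM with MEOX2 siRNA. Most of the glial sum was VIM (mean 161 and 84.1 FPKM), while OLIG2 in that list rose (mean 1.15 and 1.72 FPKM). The part of these markers in the result was not tested. Being bulk RNA, these values cannot tell apart fewer transcripts per cell and fewer cells that express a gene.

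**Figure D3:**
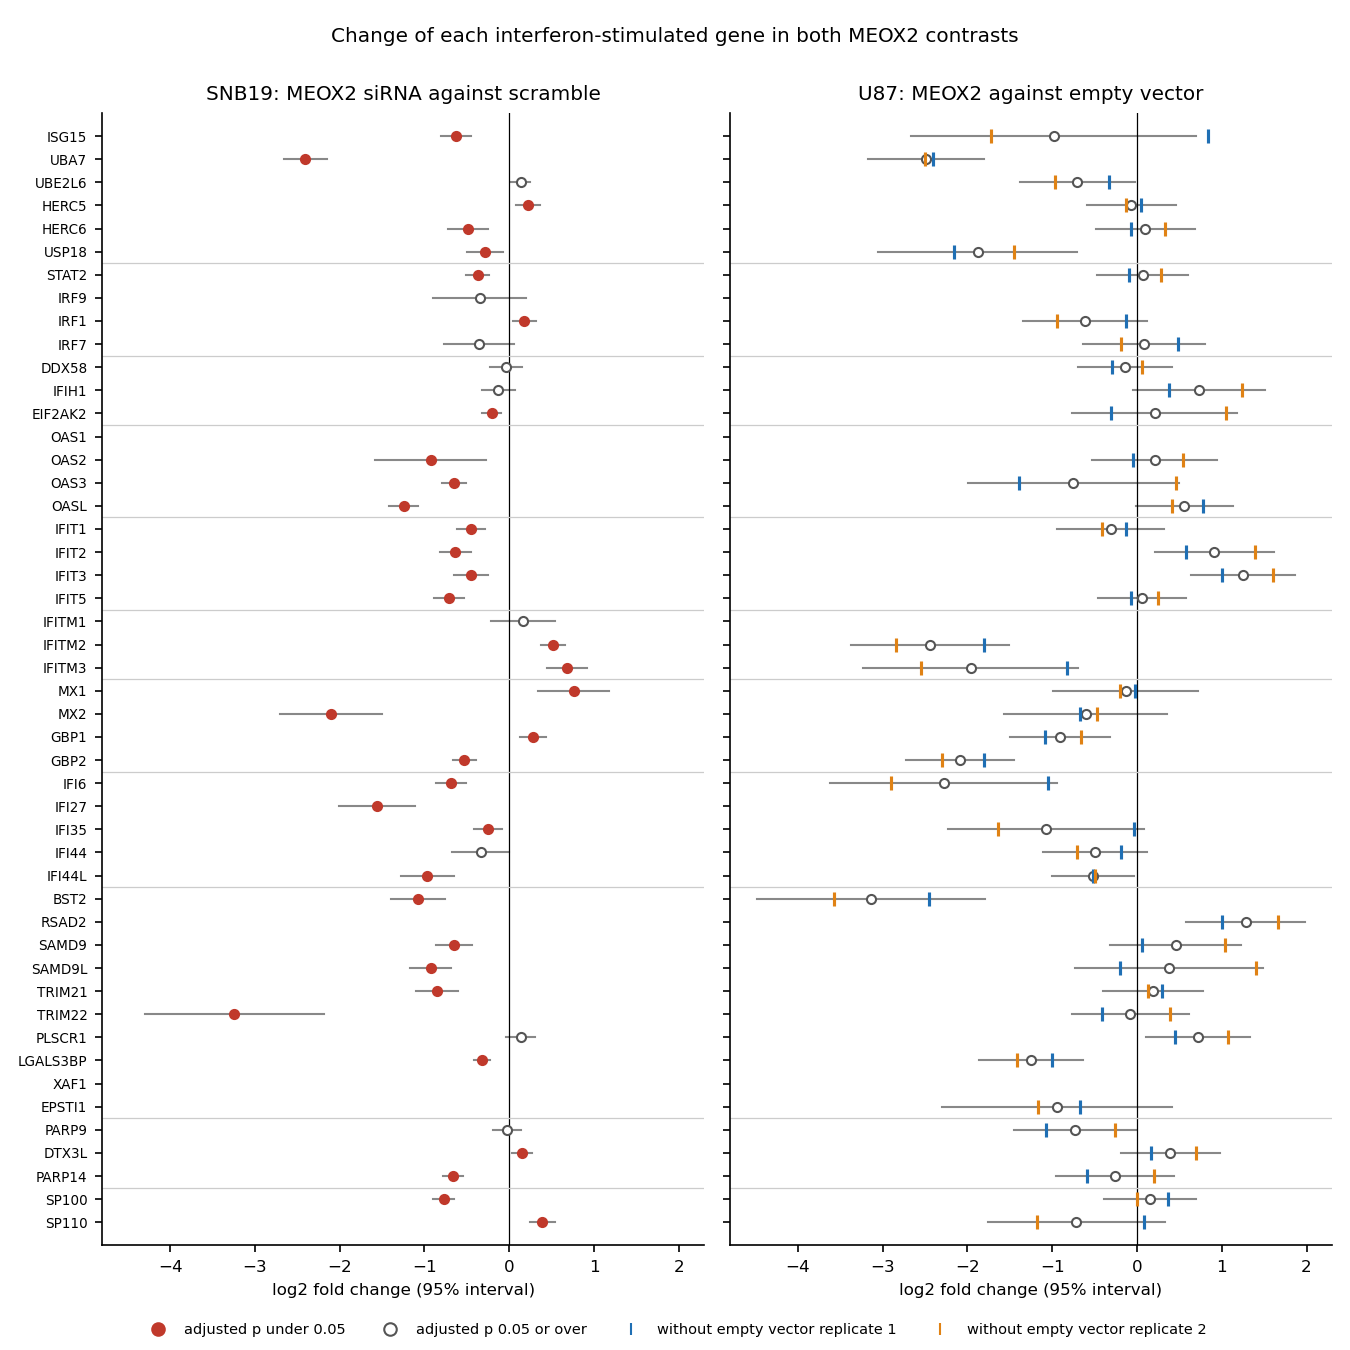
Log2 fold change of each member (points) with its 95% interval (lines), in SNB19 MEOX2 siRNA against Scramble siRNA on the left and U87 MEOX2 overexpression against Empty Vector on the right. The intervals use a normal approximation and are narrower than the test implies, mainly in U87. Filled points passed the adjusted p threshold, and short bars on the right give the value with either Empty Vector library left out. In SNB19 27 filled points lie below 0 and 8 above, and in U87 none is filled.

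In the ISG15 conjugation group 4 of 6 members fell and 1 rose. UBA7, the E1 enzyme that activates ISG15 (chr3:49805207-49813946, minus strand, GRCh38), had 4.48, 4.25 and 5.03 FPKM with Scramble siRNA and 1.02, 0.858 and 0.843 FPKM with MEOX2 siRNA. The silenced libraries lay far below every control, and the change was 5.30-fold (log2 fold change -2.41 ± 0.13 SE, adjusted p = 3.41e-12). ISG15 itself fell from 49.7, 58.5 and 50.5 FPKM to 41.6, 33.1 and 33.0 FPKM, with no overlap (-0.63 ± 0.09, adjusted p = 7.67e-06). The share of all genes with separate SNB19 ranges is not given, so here and below separate ranges do not set a member apart. HERC6, a HECT-type ligase, fell by 0.49 on the log2 scale. USP18, the protease that removes ISG15, fell by 0.29 with overlapping ranges, a call kept in 6 of 12 alternatives. HERC5, the main E3 ligase for ISG15, rose by 0.22 (adjusted p = 0.0137). UBE2L6, the E2 enzyme, ranged from 38.0 to 42.4 FPKM in controls and from 45.8 to 47.2 FPKM with siRNA, and did not pass (adjusted p = 0.0597). The E1 enzyme thus changed far more than the other enzymes of the same cascade.

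Among the transcription factors and RNA sensors 2 of 7 fell and 1 rose. STAT2, a subunit of ISGF3, fell by 0.37 (log2; adjusted p = 9.67e-05), and IRF1, an interferon regulatory factor, rose by 0.18 (adjusted p = 0.0347), a call kept in 5 of 12 alternatives. IRF9, the DNA-binding subunit of ISGF3, and IRF7 had log2 fold changes of -0.35 ± 0.28 and -0.36 ± 0.21 and did not pass, with wide 95% intervals, -0.89 to 0.20 and -0.77 to 0.06. The RNA sensors DDX58 (RIG-I) and IFIH1 (MDA5) had -0.04 ± 0.10 and -0.13 ± 0.10, neither called, so their 95% intervals, -0.23 to 0.15 and -0.32 to 0.07, leave room for small changes only. EIF2AK2 (PKR), the kinase that halts translation on double-stranded RNA, fell by 0.21 (adjusted p = 0.00429).

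All 3 OAS and all 4 IFIT genes tested were called lower. OASL, an OAS-like protein that lacks synthetase activity, had 8.60, 9.08 and 8.76 FPKM with Scramble siRNA and 4.001, 3.92 and 3.79 FPKM with MEOX2 siRNA, a 2.37-fold drop (-1.25 ± 0.09, adjusted p = 2.38e-10). OAS3 fell by 0.65, and OAS2, with 28, 16 and 28 counts in controls and 11, 14 and 13 with siRNA, by 0.93 (adjusted p = 0.0234). OAS2 kept the call in 6 of 12 alternatives, and OAS2, OAS3, IFIT1 and IFIT3 lost it with all 4 groups in 1 fit. The OAS enzymes are synthetases switched on by double-stranded RNA. OAS1 had too few counts to test, 7 to 13 in controls and 6 or 7 with siRNA. All 4 tested IFIT genes, whose proteins bind foreign RNA, fell: IFIT5 by 0.71, IFIT2 by 0.64, IFIT1 by 0.45 and IFIT3 by 0.45 on the log2 scale. IFIT1, IFIT2 and IFIT3 overlap the annotated span of LIPA on the opposite strand, which had up to 2016 counts, and the library kit does not mark strand, so reads at overlapping exons could not be told apart.

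Of the IFITM genes 2 of 3 rose. IFITM2 had 20.9, 21.2 and 20.7 FPKM in controls and 29.96, 30.7 and 33.9 FPKM with siRNA, a rise of 1.43-fold (0.52 ± 0.07, adjusted p = 3.87e-06). IFITM3 rose from 6.54, 8.71 and 8.22 FPKM to 12.2, 12.8 and 14.5 FPKM (0.68 ± 0.12, adjusted p = 6.74e-05). All 3 silenced libraries lay above every control for both genes. IFITM1 had 3.58 to 3.88 FPKM in controls and 3.42 to 5.45 FPKM with siRNA, and did not pass. These genes are close copies, and IFITM1 lies within the annotated span of IFITM2, so counts may be split between them.

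Among the GTPases both directions occurred, with 2 members higher and 2 lower. MX2, a dynamin-like GTPase that acts against retroviruses, had 88, 51 and 71 counts with Scramble siRNA and 8, 14 and 27 with MEOX2 siRNA, 4.29-fold lower (-2.10 ± 0.31, adjusted p = 7.17e-06). Its paralog MX1 rose from 48, 29 and 37 counts to 59, 73 and 63 (0.76 ± 0.21, adjusted p = 0.00492). Both MX genes stayed under 1 FPKM in all 10 libraries, so these changes were between low levels. Of the guanylate-binding proteins, GBP2 fell by 0.53 (adjusted p = 1.96e-06) and GBP1 rose by 0.29 (adjusted p = 0.00406).

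Of the other IFI genes 4 of 5 fell. IFI27, a small membrane protein much used as an interferon marker, had 96, 57 and 81 counts in controls and 32, 19 and 29 with siRNA, 2.95-fold lower (-1.56 ± 0.23, adjusted p = 7.53e-06). IFI44L fell from 0.843, 0.740 and 0.837 FPKM to 0.435, 0.374 and 0.499 FPKM (-0.97 ± 0.16, adjusted p = 2.54e-05). IFI6 fell from 85.3, 104 and 87.7 FPKM to 69.2, 54.9 and 56.0 FPKM, again with separate ranges (-0.69 ± 0.09). IFI35 fell by 0.25. IFI44 had 2.69 to 3.73 FPKM in controls and 2.30 to 3.12 FPKM with siRNA and did not pass (adjusted p = 0.0997).

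Of the remaining antiviral effectors 6 of 7 tested fell. TRIM22, an E3 ligase, had 23, 21 and 15 counts in controls and 1, 1 and 4 with siRNA, and its fitted change was 9.46-fold (-3.24 ± 0.54, adjusted p = 3.21e-05). With so few counts its interval is wide, from -4.30 to -2.19, and its level was low, at most 0.254 FPKM in SNB19. TRIM22 also overlaps the annotated span of TRIM5 on the opposite strand, which had up to 497 counts, and was counted without strand. BST2, or tetherin, which holds budding virus at the membrane, had 9.98, 8.60 and 8.06 FPKM in controls and 5.35, 4.35 and 3.55 FPKM with siRNA (2.11-fold lower, -1.08 ± 0.16, adjusted p = 8.92e-06). The paralogs SAMD9L and SAMD9, which restrain growth and virus replication, fell together. SAMD9L went from 2.06, 1.76 and 1.81 FPKM to 1.04, 0.995 and 1.09 FPKM (-0.93 ± 0.12, adjusted p = 1.88e-06), and SAMD9 fell by 0.65. TRIM21, a cytosolic antibody receptor, went from 6.07, 6.05 and 6.75 FPKM to 3.37, 4.11 and 3.53 FPKM (-0.85 ± 0.13, adjusted p = 9.03e-06). LGALS3BP fell from 175, 179 and 177 FPKM to 155, 146 and 145 FPKM (-0.32 ± 0.05). PLSCR1, a phospholipid scramblase, did not pass (0.13 ± 0.09). RSAD2 (viperin), XAF1 and EPSTI1 had too few counts in SNB19 to test.

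PARP14, a mono-ADP-ribosyltransferase, fell by 0.66 (adjusted p = 9.98e-09). DTX3L, an E3 ligase, rose by 0.15 (adjusted p = 0.044), a call kept in 4 of 12 alternatives, whereas its partner PARP9 had -0.03 ± 0.08. PARP9 and DTX3L overlap on opposite strands and were counted without strand. SP100, a protein of PML nuclear bodies, fell from 5.47, 5.57 and 5.61 FPKM to 3.50, 3.34 and 3.41 FPKM (-0.77 ± 0.06, adjusted p = 2.01e-09). SP110, its relative, rose by 0.39 (adjusted p = 0.000171). It overlaps the annotated span of SP140 on the opposite strand, which had up to 1466 counts, and was also counted without strand.

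MEOX2 overexpression in U87 cells gave wide intervals. With both Empty Vector libraries, 0 of 43 members tested and 0 of 14180 genes passed (0% in either direction; edgeR, smallest adjusted p 0.123), although 11 members and 2643 genes had an unadjusted p under 0.05. DESeq2 on the same libraries called 321 genes higher and 618 lower, and 0 and 6 members. The member median was -0.26 against -0.06 for all genes. In FPKM, 13 members lay below both vector libraries in both overexpression libraries, where 22.0% of all genes did, and 10 lay above, where 35.5% of all genes did. With counts scaled by TMM, as for the fold changes, 16 lay below (28.2% of all genes) and 7 above (29.9%).

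Each vector library alone gave many calls, under the assumption that the lone control varies as the overexpression pair does. Without replicate 1, 7 members were called higher and 16 lower (23.3% and 24.2% of 14875 genes), and without replicate 2, 13 were higher and 18 lower (36.0% and 35.2% of 14912 genes). Of the 43 members tested in both fits, 11 were lower in both (25.6%, against 2189 of 14591 genes), 5 were higher in both (11.6% against 16.1%) and 4 were called in opposite directions (9.30% against 7.29%). The 4 were ISG15, EIF2AK2, OAS3 and TRIM22. For those, the direction rested on which vector library was used.

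The 11 members lower against either vector library came from several groups. UBA7 had 3.85 and 4.88 FPKM with Empty Vector and 0.737 and 1.10 FPKM with MEOX2, and its log2 fold change was -2.48 ± 0.35 (adjusted p = 0.136), -2.40 without vector replicate 1 and -2.50 without replicate 2. BST2 had 43 and 23 counts with Empty Vector and 4 in each overexpression library (-3.14 ± 0.69, adjusted p = 0.174), with -2.45 and -3.58 when vector replicates 1 and 2 were left out in turn. IFITM2 had 13.4 and 8.76 against 2.43 and 2.61 FPKM (-2.44 ± 0.48, adjusted p = 0.162), with -1.80 and -2.84 in the same way. In each of these 3 genes both overexpression libraries lay far below both vector libraries, which the choice of the 11 against each vector library largely fixed.

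IFITM3 had 106 and 43.2 FPKM with Empty Vector and 22.4 and 26.7 FPKM with MEOX2 (-1.96 ± 0.65, with -0.82 without vector replicate 1 and -2.55 without replicate 2). IFI6 had 70.2 and 26.4 against 12.7 and 12.9 FPKM (-2.28 ± 0.68, with -1.05 and -2.90). For both of these short genes the log2 fold change was smaller without replicate 1. GBP2 had 4.96 and 4.76 against 1.46 and 1.30 FPKM (-2.09 ± 0.32, adjusted p = 0.143, with -1.80 and -2.29). LGALS3BP had 98.1 and 99.8 against 49.95 and 50.2 FPKM (-1.25 ± 0.31, adjusted p = 0.192, with -1.01 and -1.41). USP18, GBP1, UBE2L6 and IFI44L completed the 11, with log2 fold changes of -1.88, -0.91, -0.70 and -0.52 over both vector libraries. Without replicates 1 and 2 in turn USP18 had -2.16 and -1.46, GBP1 -1.08 and -0.66, UBE2L6 -0.33 and -0.96 and IFI44L -0.52 and -0.49.

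The 5 members higher against either vector library were IFIT3, IFIT2, RSAD2, OASL and PLSCR1. IFIT3 had 6.17 and 12.7 FPKM with Empty Vector and 24.4 and 26.5 FPKM with MEOX2 (1.25 ± 0.31, adjusted p = 0.192; 1.00 and 1.60 with each vector library left out). IFIT2 had 3.79 and 9.04 against 13.3 and 13.8 FPKM (0.91 ± 0.36; 0.57 and 1.40). RSAD2, viperin, a radical SAM enzyme that blocks viral replication, had 0.627 and 1.34 against 2.62 and 2.80 FPKM (1.28 ± 0.36; 1.01 and 1.67). OASL had 12.8 and 13.5 against 21.5 and 24.96 FPKM (0.56 ± 0.29; 0.78 and 0.41), and PLSCR1 had 5.02 and 10.4 against 14.9 and 13.9 FPKM (0.72 ± 0.31; 0.45 and 1.08). In all 5 both overexpression libraries lay above both vector libraries, which their choice against each vector library largely fixed. Of their relatives, IFIT1 had a log2 fold change of -0.31 ± 0.32 and IFIT5 0.06 ± 0.26, while OAS2 had 0.21 ± 0.38 and OAS3 -0.75 ± 0.64.

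ISG15 had 162 and 36.9 FPKM with Empty Vector and 62.4 and 70.8 FPKM with MEOX2, so that the overexpression libraries lay between the vector libraries. Its log2 fold change was -0.98 ± 0.86, 0.84 without vector replicate 1 and -1.72 without replicate 2. IFI44, a cytosolic protein, was abundant in U87, at 19.1 to 20.4 FPKM with Empty Vector and 16.3 to 17.6 FPKM with MEOX2 (-0.49 ± 0.31, and called at -0.71 without vector replicate 2). IFITM1 had 0 counts in all 4 U87 libraries, which allows a level of up to 0.198 FPKM in the vector libraries, the higher of their 3-count levels. STAT2, IRF7, DDX58, HERC5 and HERC6 had log2 fold changes between -0.14 and 0.10. Their 95% intervals, too narrow for 2 libraries per group, lay between -0.70 and 0.80. Of these 5, STAT2 was called without vector replicate 2 (0.28, adjusted p = 0.0298).

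**Figure D4:**
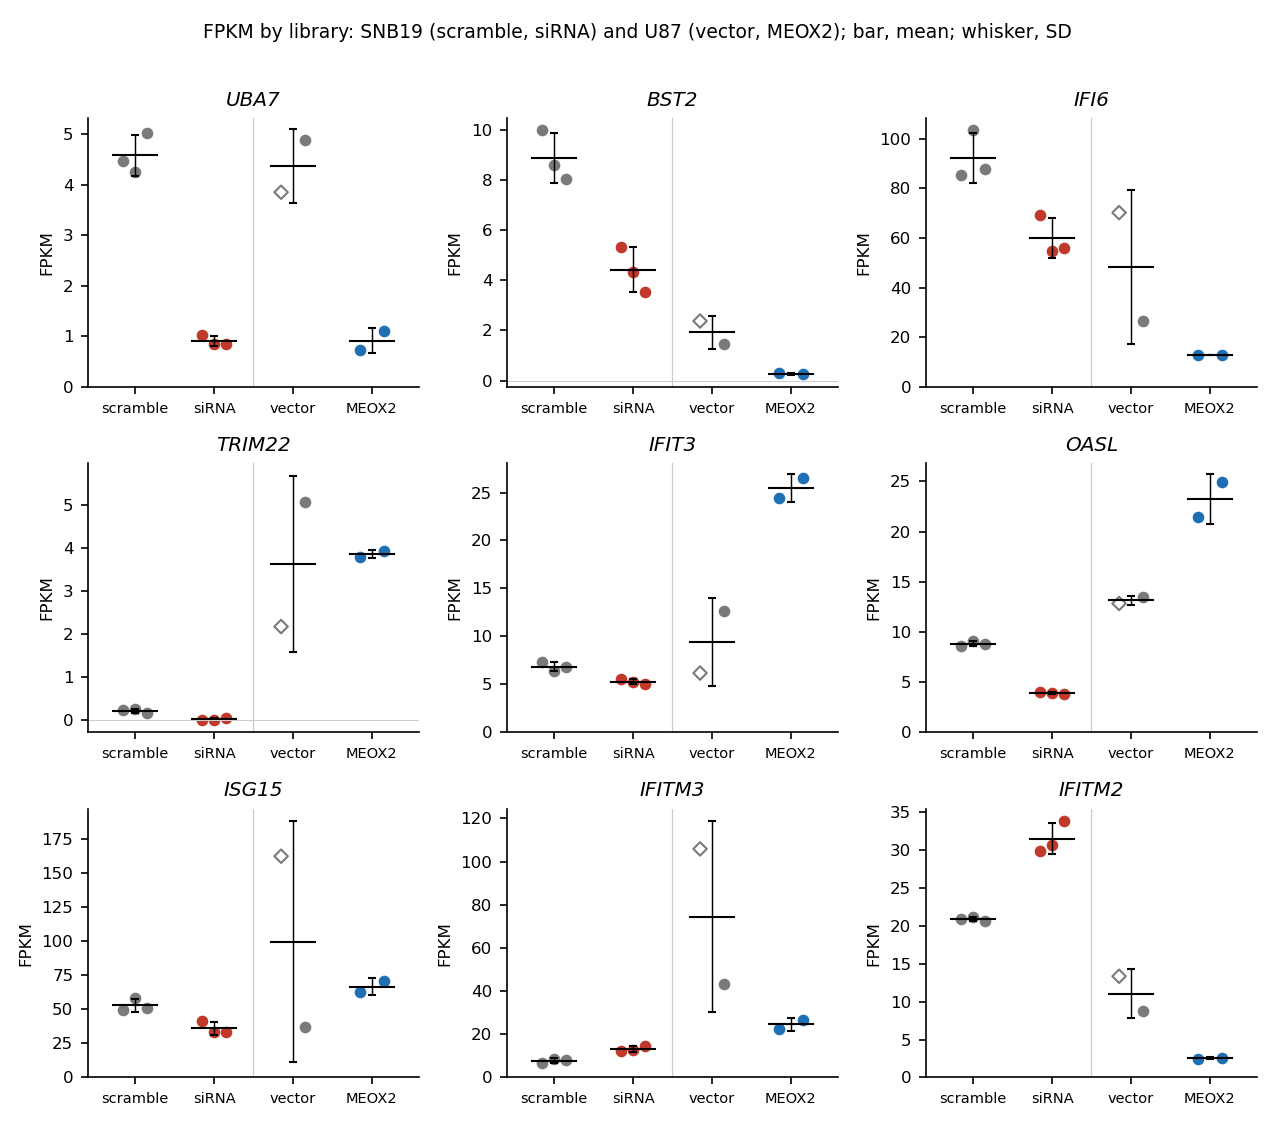
FPKM of 9 members in every library, with SNB19 on the left of each panel and U87 on the right. Points are libraries, the open diamond is U87 Empty Vector replicate 1, bars are means and whiskers SD, and the 9 were chosen after their values were seen. UBA7, BST2 and IFI6 are lower in the right-hand group of both lines, whereas IFIT3 and OASL are lower with siRNA and higher with overexpression.

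Lower MEOX2 in SNB19 and higher MEOX2 in U87 are opposite manipulations, and their changes are given as measured in each line. Of the 42 members tested in both contrasts when vector replicate 1 was left out, 11 were lower in both contrasts: UBA7, USP18, EIF2AK2, OAS3, GBP2, IFI6, IFI44L, BST2, TRIM22, LGALS3BP and PARP14. Lower with siRNA and higher with overexpression were 5, namely ISG15, OASL, IFIT2, IFIT3 and SP100, and higher with siRNA and lower with overexpression were 3, namely IFITM2, IFITM3 and GBP1. Over all 13363 genes tested in both, 11.4% were lower in both, 5.20% lower and then higher, and 5.07% higher and then lower. Without vector replicate 2 instead, 11 of 42 were lower in both (12.8% of 13331 genes), 9 were lower and then higher (10.6%) and 5 higher and then lower (8.42%), and the members changed. EIF2AK2, OAS3 and TRIM22 were then higher with overexpression and ISG15 lower, STAT2, SAMD9 and SAMD9L joined those lower and then higher, and PARP14 and SP100 were not called. With both vector libraries none of the U87 values passed.

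**Figure D5:**
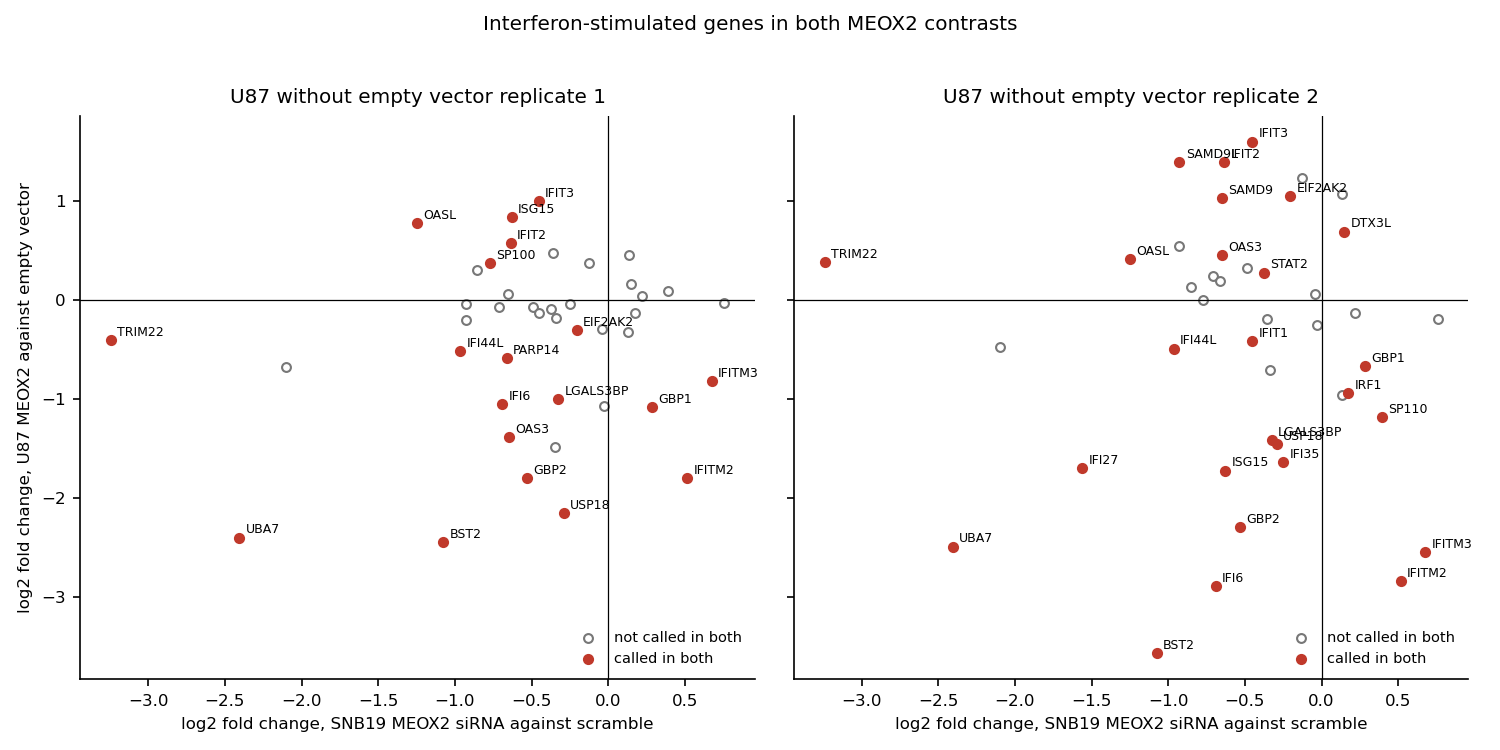
Log2 fold change with MEOX2 overexpression in U87 (vertical) against that with MEOX2 siRNA in SNB19 (horizontal) for each member, with U87 Empty Vector replicate 1 left out on the left and replicate 2 on the right. Red points were called in both contrasts. UBA7 and BST2 lie at the lower left in both panels, IFIT3, IFIT2 and OASL at the upper left, and ISG15 changes side.

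The difference between the contrasts was tested in all 10 libraries, as the change with more MEOX2 in U87 minus the change with more MEOX2 in SNB19. Of 47 members tested, 15 had a lower and 2 a higher value in U87 than in SNB19 (adjusted p under 0.05; 14.2% and 10.2% of 17312 genes). UBA7 had the largest difference, -4.89 ± 0.29 (adjusted p = 2.21e-05). BST2 followed with -4.21 ± 0.58 (adjusted p = 0.00109), TRIM22 with -3.32 ± 0.62, IFI6 with -2.97 ± 0.60, MX2 with -2.69 ± 0.65 and GBP2 with -2.62 ± 0.23. IFIT3 and PLSCR1 had a positive difference, 0.80 ± 0.25 and 0.85 ± 0.25 (adjusted p = 0.0458 and 0.0364), and neither passed when any single SNB19 or overexpression library was left out, nor with the replicate number as a block. Of the members not yet given by library, TRIM22 had 211 and 429 counts with Empty Vector and 286 and 345 with MEOX2, and MX2 had 20 and 27 against 12 and 21. OAS1 had 13, 7 and 13 counts with Scramble siRNA, 7, 7 and 6 with MEOX2 siRNA, 11 and 16 with Empty Vector and 6 and 4 with overexpression. USP18 had 8.37, 7.81 and 7.08 FPKM with Scramble siRNA, 7.24, 6.05 and 6.73 with MEOX2 siRNA, 0.698 and 1.54 with Empty Vector and 0.225 and 0.449 with overexpression. Ranges overlapped for TRIM22 and MX2 in U87 and for USP18 in SNB19. GBP2 went from 7.03, 6.81 and 6.92 to 4.98, 5.03 and 5.15 FPKM in SNB19. PARP14 went from 8.58, 8.90 and 9.20 to 5.62, 5.98 and 6.19 FPKM in SNB19 and had 2.54 and 5.91 against 4.31 and 3.63 FPKM in U87. IFI44L had 3.596 and 4.95 against 3.62 and 3.35 FPKM in U87, with overlapping ranges, as for PARP14. The other 9 members called were USP18, OAS1, OASL, IFIT1, IFITM2, IFI44L, LGALS3BP, PARP14 and SP100. Leaving out either vector library leaves 1 control and removes the spread between the vector libraries, so a call kept in those fits is no check. Without vector replicates 1 and 2 in turn the difference was -4.77 and -4.89 for UBA7 and -3.49 and -4.65 for BST2. OASL, PARP14 and SP100 lost the call when any single SNB19 or overexpression library was left out, and IFIT1 in all of these cases but 1. With the replicate number as a block 9 of the 15 lower calls remained, with OAS1, OASL, IFIT1, MX2, PARP14 and SP100 lost. OAS1 kept its call in 6 of 15 alternatives. The IFI6 difference was -1.71 without vector replicate 1 and -3.57 without replicate 2.

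The control cells of both lines differed in part of the set. Of 47 members tested between SNB19 with Scramble siRNA and U87 with Empty Vector, 6 were higher in SNB19 and 12 lower (21.4% and 20.0% of 16158 genes). Line and control treatment cannot be told apart here. IFITM1 had 3.69, 3.58 and 3.88 FPKM in SNB19 and 0 counts in U87, at least 18.8-fold higher. IFITM3 was the reverse, with 6.54 to 8.71 FPKM in SNB19 and 43.2 to 106 FPKM in U87 (log2 difference -3.74 ± 0.53, adjusted p = 0.0049), with -2.63 without vector replicate 1 and -4.34 without replicate 2. IFITM2 did not pass (0.48 ± 0.33), but was called without vector replicate 1 (1.10). IFITM1 and IFITM3 thus differed between the lines in opposite directions.

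USP18 was higher in SNB19, with 7.08 to 8.37 against 0.698 and 1.54 FPKM (2.48 ± 0.29, adjusted p = 0.0026). BST2, with 8.06 to 9.98 against 1.46 and 2.38 FPKM, was also higher (1.77 ± 0.39), as were IFI27 (2.23 ± 0.68, with 3.97 and 1.46 without vector replicates 1 and 2), MX2 (1.17 ± 0.29) and GBP1 (1.01 ± 0.20). Of these, IFI27, BST2, MX2 and GBP1 lost the call when any single Scramble library was left out. TRIM22 was higher in U87, with 0.161 to 0.254 against 2.17 and 5.07 FPKM (-4.37 ± 0.35, adjusted p = 0.000897). The paralogs IFI44 and IFI44L were both higher in U87, IFI44 with 2.69 to 3.73 against 19.1 and 20.4 FPKM (-2.99 ± 0.26) and IFI44L with 0.740 to 0.843 against 3.596 and 4.95 FPKM (-2.76 ± 0.16). In U87 Empty Vector cells IFI27 had 20 and 4 counts and OAS2 44 and 78. RSAD2 had 0, 2 and 0 counts in SNB19 and 49 and 91 in U87, and EPSTI1 had 1, 1 and 0 against 12 and 10, so both passed but on too few SNB19 counts for a fold. IRF7, OAS2, OASL, IFIT3, TRIM21 and PLSCR1 were lower in SNB19 by 0.78 to 1.72 on the log2 scale, and these 6 lost the call when any single Scramble library was left out. UBA7 had similar levels in both lines, with a difference of -0.30 ± 0.17 that did not pass.

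The rest of the pathway was read from lists of related genes. With MEOX2 siRNA 27.4% of all 15525 genes tested were called higher and 28.5% lower. In lists this short, shares near these do not set a list apart. Of 16 interferon ligand genes listed, 10 were in the table and none had enough counts to test; the highest value in any library was 14 counts (1.01 FPKM). Of the receptors and kinases, 3 of 10 tested rose and 6 fell with MEOX2 siRNA. JAK1 fell by 0.26, TYK2 by 0.36 and JAK2 by 0.41 on the log2 scale, and the 3 that rose are not named here. Of the sensors and adaptors, 5 of 13 rose and 3 fell: MYD88, an adaptor of Toll-like receptors, went from 20.4, 18.3 and 20.1 FPKM to 10.9, 9.93 and 9.82 FPKM (-1.01, adjusted p = 1.36e-10), and TMEM173 (STING) rose by 0.44.

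Of 14 negative regulators 4 rose and 7 fell with MEOX2 siRNA, where 27.4% of all genes were called higher and 28.5% lower. SOCS1, which blocks JAK kinases, had 4.81, 4.87 and 4.09 FPKM in controls and 1.95, 1.74 and 1.74 FPKM with siRNA (-1.41, adjusted p = 3.63e-07), whereas SOCS3 rose by 0.89. In a second list of 33 tested interferon-stimulated genes 16 fell and 5 rose, and the median was -0.18. TRIM14 (-1.49), MOV10 (-1.16) and NLRC5 (-0.70) were among those that fell, and the 5 that rose are not named here. Of 9 tested genes that lean to interferon-gamma, 5 rose and 4 fell, among them APOL3 (-1.54) and WARS (0.76). With MEOX2 overexpression in U87 none of these lists held a gene that passed with both vector libraries, and their medians ran from -1.23 for the interferon-gamma list to 0.38 for the negative regulators.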

How the data were processed

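RNA was selected with poly-T beads and made into libraries with the NEBNext Ultra RNA kit, which does not mark strand, and sequenced as paired reads of 150 bases. The authors deposited, for each of 10 libraries, a raw count per gene and an FPKM value scaled to gene length and library total. The submitters' processing notes name HISAT2, HTSeq 0.11.2, DESeq2 1.26.0 and GRCh38 without giving their roles. Gene positions came from the GENCODE annotation of GRCh38.

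Counts were scaled by TMM and filtered with filterByExpr, and groups were compared with edgeR 4.0.16 (quasi-likelihood test, R 4.3.3), Benjamini-Hochberg adjusted over all genes tested. A gene was called at an adjusted p under 0.05. Each contrast was fitted on its own groups, and the difference between contrasts on all 10 libraries. Scripts were tested on simulated data. Alternatives were DESeq2 1.42.0, its size factors in edgeR, no count filter, limma 3.58.1 on log2(FPKM + 1), a replicate block, all groups in 1 fit, leaving out each library, a rule of over 2-fold with an unadjusted p under 0.05 and, chosen after seeing the data, gene-length offsets and a crossed block. Wilson intervals cover counting error only. The 95% intervals of fold changes were taken from the SE by a normal approximation. With few libraries they are narrower than the test implies. In U87 that of IFIT2 ran from 0.21 to 1.61, with an unadjusted p of 0.0554 (edgeR quasi-likelihood test). All members may be named. Called members among the 12 largest changes are given with every library, and up to 3 called genes were named per pathway list and comparison, with JAK1, JAK2 and NLRC5 chosen after their values were seen. The members and gene lists were chosen with earlier results of these data known. Some genes of the pathway lists are not reported here by name.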

Additional observations from a re-analysis of the deposited data

Results flagged for a closer look

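For 17 members the change with more MEOX2 in U87 differed from the change with more MEOX2 in SNB19 by a test of the difference itself (edgeR, adjusted p under 0.05). The U87 minus SNB19 differences in log2 fold change were -4.89 for UBA7, -4.21 for BST2, -3.32 for TRIM22, -2.97 for IFI6, -2.69 for MX2, -2.62 for GBP2, -2.21 for OAS1 and -2.17 for USP18. Smaller negative differences were -1.92 for IFITM2, -1.57 for LGALS3BP, -1.49 for IFI44L, -0.93 for PARP14, -0.76 for IFIT1, -0.69 for OASL and -0.62 for SP100. Positive differences were 0.85 for PLSCR1 and 0.80 for IFIT3. OAS1 had 4 to 16 counts in every library. The calls of OASL, PARP14, SP100, IFIT3 and PLSCR1 were lost when any single SNB19 or overexpression library was left out, that of IFIT1 in all of these cases but 1, and all 6 with the replicate block. The block also removed the calls of OAS1 and MX2, and OAS1 kept its call in 6 of 15 alternatives. Line, delivery method and duration differ between the contrasts and cannot be told apart.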

How the results depend on the processing

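With MEOX2 siRNA the counts of genes called higher and lower were 1210 and 1515 with all 4 groups in 1 fit (members 1 and 13) and 866 and 803 under the rule of over 2-fold (members 0 and 6), and DESeq2 called 5 members higher. Leaving out 1 library gave 5 to 7 members higher. With MEOX2 overexpression, genes called higher and lower were 611 and 1252 with no filter (members 1 and 6), 321 and 618 with DESeq2 (6 members lower), 1951 and 2587 with all 4 groups (members 5 and 13), 13 and 5 with length offsets and 878 and 1282 under the rule of over 2-fold (members 2 and 8), while limma called 5 higher. Leaving out 1 library gave 29 to 5367 genes higher, 9 to 5249 lower, 0 to 13 members higher and 0 to 18 lower.

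Between the control cells limma called 1886 genes lower and 12 members higher, and all 4 groups in 1 fit called 4985 genes lower and 14 members higher. Leaving out 1 library gave 1932 to 7326 genes higher, 1312 to 6303 lower, 2 to 19 members higher and 6 to 17 lower. For the difference between contrasts 0 members were higher with no filter and under the rule of over 2-fold, and limma called 3210 genes higher. Leaving out 1 library gave 947 to 5228 genes higher, 1318 to 5207 lower, 0 to 6 members higher and 10 to 25 lower.

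The replicate block called 211 genes higher and 257 lower with overexpression (4 members lower), 2274 and 1536 between controls (5 members lower) and 908 and 1307 for the difference (members 0 and 9). The deviations of each library from its group mean, on the log2 scale, were correlated between the groups. For same-numbered SNB19 libraries these deviations correlated at 0.0435, 0.00256 and 0.0588. Not every library's deviations correlated best with those of its own number, so the numbers were not read as pairs. The crossed block in U87 called 506 genes higher and 646 lower (6 members lower).

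Some directions turned. With U87 Empty Vector replicates 1 and 2 left out in turn, the log2 fold changes with overexpression were 0.84 and -1.72 for ISG15, -0.31 and 1.05 for EIF2AK2, -1.39 and 0.46 for OAS3 and -0.41 and 0.39 for TRIM22. Between controls they were 0.36 and -2.19 for ISG15, -0.45 and 0.39 for IFIT2 and -1.01 and 0.60 for SAMD9L, and in the difference -0.47 and 0.86 for EIF2AK2 and 0.52 and -0.77 for SP110. The ISRE core was in 47.4% of members' promoters on the gene's own strand alone. Causes of these shifts were not tested. Depth limits OAS1, XAF1, EPSTI1 and, in SNB19, RSAD2 and TRIM22.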
